A study of Chromochloris zofingiensis with 6 samples.

Results

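The 70 genes described here are nuclear genes of the green microalga Chromochloris zofingiensis whose transcript levels differed widely between libraries of untreated cells. They were chosen from 15364 gene IDs of a read count table by CPM, the counts of an ID per 1e6 reads assigned to genes in a library. A member has an ID on chromosomes Cz01 to Cz16 or Cz19, has at least 10 CPM in control replicate 1, and is at least 4 times as high there as in control replicate 2. In addition, its lowest control lies under 1.5 times its highest levofloxacin library. Of 13919 IDs on these chromosomes, 9136 reached 10 CPM in control replicate 1, and 70 (0.503% of the 13919) met every clause. The chromosome is read from the prefix of the ID, as the species' genome annotation is known to name it; the files do not state this.

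The study set 3 control libraries of strain ATCC 30412, grown without levofloxacin, beside 3 grown with 10 mg/L of it. Both groups grew in darkness in CZ-M1 medium with 30 g/L glucose, at 25 °C and 150 rpm, and RNA came from 100 mL of culture on day 15. Whether samples 1 to 3 of a group were separate cultures is not said in the labels, so a test here covers the spread among these libraries only, part of which may be technical. The assigned reads ran from 28482776 to 36223195 per library, and the biological coefficient of variation over all tested IDs was 24.9% among controls and 10.9% among levofloxacin libraries.

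C. zofingiensis is a unicellular alga that can live by photosynthesis or on glucose in the dark, and it is known for storing oil and carotenoids such as astaxanthin. In batch cultures of microalgae the expression of many genes is known to follow growth phase and the supply of sugar and mineral nutrients. Levofloxacin is a fluoroquinolone, an antibiotic that acts on the type II topoisomerases of bacteria. The files identify genes by ID alone and do not pair IDs with names or functions, so no function is given for any member.

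Since the rule used control replicates 1 and 2, their ratio is a description and not a finding. It had a median of 5.74 over the members, with quartiles of 4.68 and 7.86 and a range from 4.01 to 52.6. Counting error was small beside it: in all 70 members the exact 95% interval of the ratio lay above 3, and in 56 it lay above 4. These intervals of the ratio, and those given below for single members, use the counts that chose the members. They describe counting error only and may not cover at 95% after that choice. The member nearest to the limit of 4 had a ratio of 4.008, and the nearest ID outside had 3.986 (422 and 106 CPM). At the limit of 10 CPM, the lowest member had 10.3 CPM in control replicate 1 and the nearest ID outside 9.55 CPM. At the limit of 1.5, the ratio of the lowest control to the highest levofloxacin library was 1.498 in the last member and 1.513 in the nearest ID outside. A further 18 IDs met the clauses on control replicates 1 and 2 and were left out by the clause on levofloxacin.

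The members spanned the range from scarce to abundant transcripts. Their share of the reads was highest in control replicate 1, and its excess over control replicate 2 is fixed by the rule. Control replicate 1 had 2.33% of its reads on them (exact binomial 95% interval 2.33 to 2.34%), control replicate 2 had 0.316% (0.314 to 0.318%) and control replicate 3 had 0.787% (0.784 to 0.790%). With levofloxacin they took 0.280% (0.278 to 0.282%), 0.362% (0.360 to 0.364%) and 0.221% (0.219 to 0.223%) in replicates 1, 2 and 3. Control replicate 3 thus lay above control replicate 2 and above every levofloxacin library, and levofloxacin replicate 2 lay above control replicate 2. The rule chose members with a low control replicate 2, so standing above it is in part set by the choice. The intervals cover counting error within a library only, not the spread between libraries. The reads also carry no molecular identifiers. The median level of a member was 52.4, 8.97 and 20.7 CPM in control replicates 1, 2 and 3. It was 7.85, 6.68 and 6.74 CPM in levofloxacin replicates 1, 2 and 3, all of them close to control replicate 2.

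**Figure D1:**
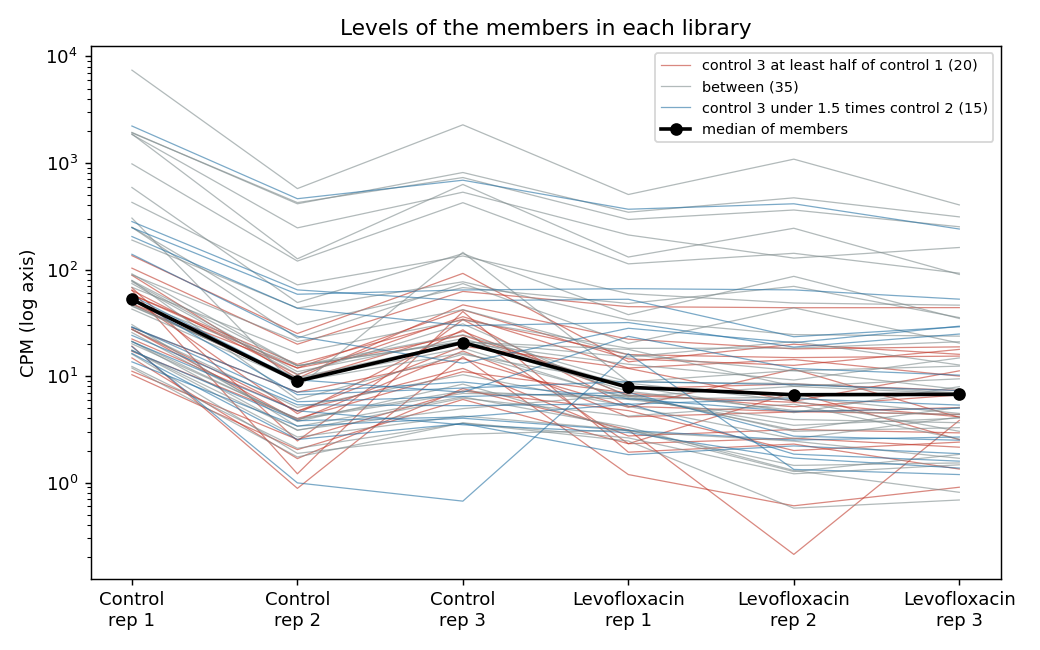
CPM (log axis) of the 70 members in the 3 control and 3 levofloxacin libraries, 1 thin line per member, coloured by where control replicate 3 lies, with the median of the members in black. The median stands at 52.4, 8.97 and 20.7 CPM in control replicates 1, 2 and 3 and between 6.68 and 7.85 CPM with levofloxacin.

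Other features of the libraries moved with this order of the controls. Control replicate 1 had 29311743 assigned reads, control replicate 3 had 34343529 and control replicate 2 had 36223195, the reverse of the order of the members' levels. This order held among the controls only. Levofloxacin replicate 1 had the fewest assigned reads of any library, 28482776, and its members had a median of 7.85 CPM. The 10 most abundant IDs of each library held 6.91%, 5.18% and 4.31% of the reads in control replicates 1, 3 and 2. In control replicate 1 they include a member, Cz09g19140, at 7436 CPM, so that share is in part set by the choice of members. Chloroplast IDs did not follow the same order, with 111, 60.4 and 21.8 reads per 1e6 in control replicates 1, 2 and 3. The part of depth and of library make-up in the members' levels was not tested. In bulk RNA of a culture, fewer cells in a given state and less RNA per cell cannot be told apart.

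A small number of members carried most of the reads. The highest was Cz09g19140, with a coding length of 933 bases, at 7436, 575 and 2282 CPM in control replicates 1, 2 and 3 and at 506, 1086 and 404 CPM in levofloxacin replicates 1, 2 and 3. Control replicates 1 and 3 were its highest libraries, while control replicate 2 lay within the range of the levofloxacin libraries. Per length, in FPKM (fragments per kilobase and 1e6 assigned reads), it ranked 5 among all IDs in control replicate 1 (rank 1 is the highest), 195 in control replicate 2 and 17 in control replicate 3. With levofloxacin its rank was 265, 80 and 331 in replicates 1, 2 and 3. Without this ID the members still took 1.59%, 0.258% and 0.559% of the reads in control replicates 1, 2 and 3.

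Cz16g02140, of 1560 coding bases and with the second-highest CPM in control replicate 1, was at 2223, 462 and 689 CPM in the controls and at 368, 414 and 240 CPM with levofloxacin. Each of its controls lay above each levofloxacin library. Its rank by FPKM was 59 in control replicate 1 and 520 in control replicate 2, and from 603 to 1111 with levofloxacin.

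Both belong to the 6 members above 1000 CPM in control replicate 1, which together held 1.72%, 0.225% and 0.568% of the reads of control replicates 1, 2 and 3. Per length, the other 4 ranged from 424 FPKM for Cz07g09160 to 2968 FPKM for Cz03g21010 in control replicate 1. Cz09g10220 was at 1912, 129 and 643 FPKM in the controls and at 134, 249 and 91.9 FPKM with levofloxacin. In Cz09g10220, as in Cz09g19140, levofloxacin replicate 2 was the highest of its group, above control replicate 2. Over all 70 members, those above 100 FPKM numbered 21, 6 and 11 in control replicates 1, 2 and 3, against 5, 8 and 4 in levofloxacin replicates 1, 2 and 3. Cz07g09160, Cz03g21010 and Cz09g10220 were named after their values had been seen.

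**Figure D2:**
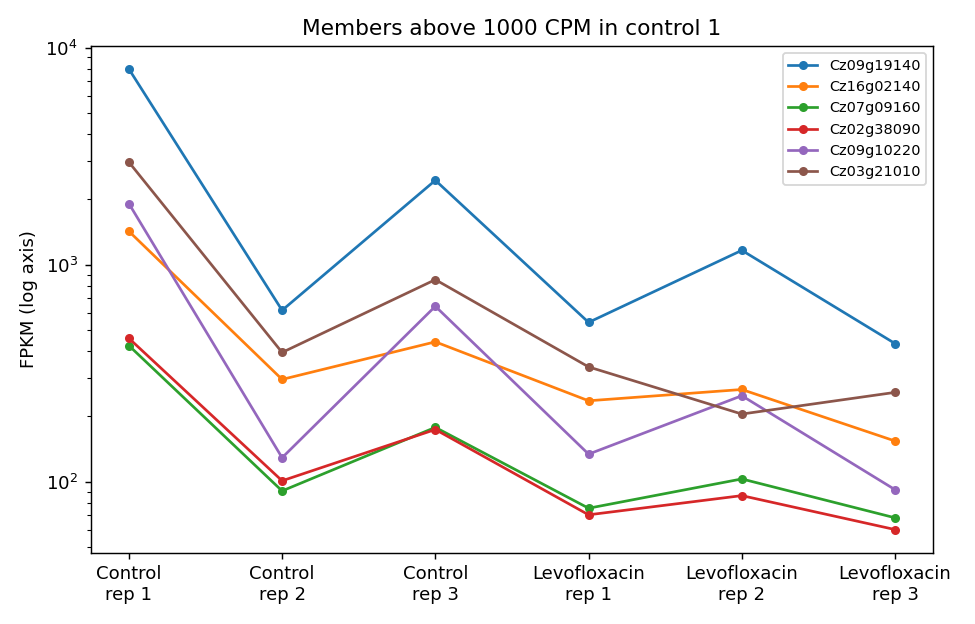
FPKM (log axis) of the 6 members above 1000 CPM in control replicate 1, 1 line per member across the 6 libraries. In control replicate 1 they range from 424 to 7969 FPKM, and each is highest there.

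Control replicate 3, which the rule used only where it was the lowest control, lay between the other controls in most members. It was above control replicate 2 and below control replicate 1 in 63 of 70 members, at or under control replicate 2 in 7 and at or above control replicate 1 in 0. The ratio of control replicate 3 to control replicate 2 had a median of 2.03 (quartiles 1.61 and 2.97). It was at least 2 in 38 of 70 members. The rule chose members with a low control replicate 2, the denominator of this ratio, so the ratio is raised by the choice and supports nothing. On the log2 scale from control replicate 2 (set to 0) to control replicate 1 (set to 1), control replicate 3 stood at a median of 0.405. With 1 library at each step there is no test of this order.

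The share of IDs with control replicate 3 between the others grew with the ratio, and it was also high in the opposite direction. Among the 2065 IDs with control replicate 1 from 1 to under 1.5 times control replicate 2, control replicate 3 lay between in 32.1%, at a median position of 0.136. Among the 353 with a ratio from 1.5 to under 2 it lay between in 73.9%, at 0.418. Among the 278 with a ratio from 2 to under 4 it lay between in 83.1%, at 0.444. In the mirror case, control replicate 2 was from 2 to under 4 times control replicate 1 in 395 IDs, and control replicate 3 lay between in 91.4% of them. At 4 times or more the mirror case held 19 IDs, of which 14 had control replicate 3 between, against 79 of the 88 IDs in the direction of the members. A wider gap leaves more room for a value between its ends, so these shares do not measure how strongly control replicate 3 was tied to the others.

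**Figure D3:**
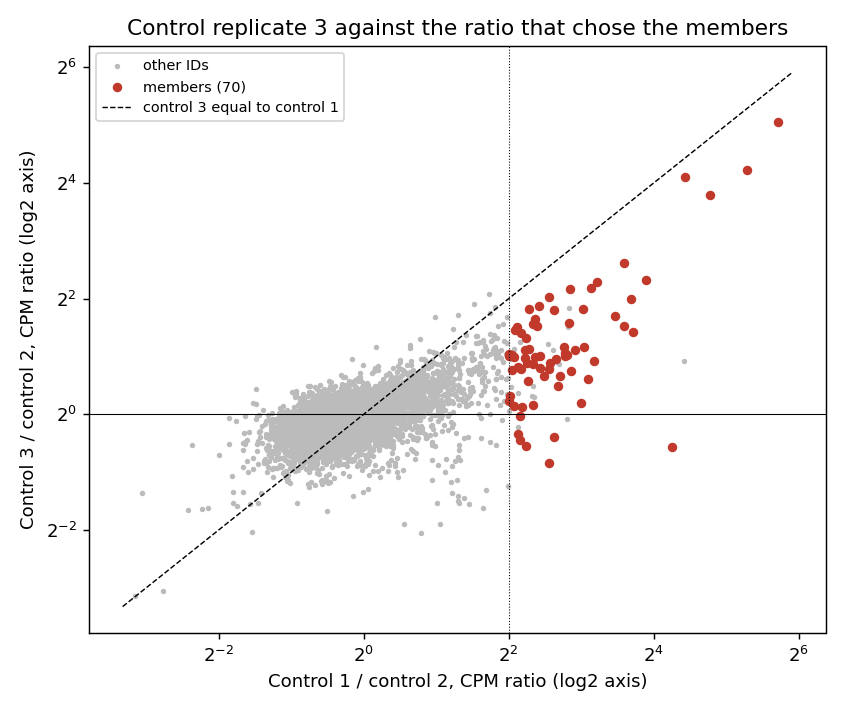
Ratio of control replicate 3 to control replicate 2 against the ratio of control replicate 1 to control replicate 2, both log2 axes, for the 70 members (red) and the other IDs at 10 CPM or more in control replicate 1 (grey). Both axes share control replicate 2, and the dotted line is the rule's limit of 4. Of the 70 members 63 lie above the horizontal line and below the dashed line.

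The members fell into 3 ranges by control replicate 3, with bounds set after the values had been seen. In 20 members it was at least 0.5 times control replicate 1, in 15 it was under 1.5 times control replicate 2, and the other 35 lay between. Across members, the ratio of control replicate 1 to 2 and the ratio of control replicate 3 to 2 had a Spearman's rho of 0.457 (n = 70 members, both ratios sharing control replicate 2).

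The largest ratio was that of Cz15g09060, of 759 coding bases, with 63.9, 1.21 and 40.4 CPM in control replicates 1, 2 and 3 and 1.93, 2.30 and 1.34 CPM in levofloxacin replicates 1, 2 and 3. Reads numbered 1873, 44 and 1388 in the controls and 55, 76 and 43 with levofloxacin, and the ratio of control replicate 1 to 2 was 52.6 (exact 95% counting interval 39.0 to 72.6). Control replicates 1 and 3 stood far above the other 4 libraries, and control replicate 2 was the lowest of all 6. Cz13g03240, of 804 coding bases, had the same arrangement at a higher level, with 304, 7.79 and 145 CPM in the controls and 8.81, 8.51 and 6.96 CPM with levofloxacin. Its ratio was 39.1 (34.7 to 44.1), and control replicate 2 lay within the levofloxacin range.

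Cz04g04130, also of 804 coding bases, was at 67.6, 2.46 and 33.9 CPM in the controls and at 5.20, 4.64 and 4.37 CPM with levofloxacin, a ratio of 27.5 (22.2 to 34.4). Control replicate 2 was its lowest library, under each levofloxacin library. In all 3 of these IDs control replicate 3 was at least 13.8 times control replicate 2, while the levofloxacin libraries differed by at most 1.72 times.

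At the other end, 15 members were high in control replicate 1 alone among the controls. Cz01g01030, of 1074 coding bases, had 21.0, 4.72 and 3.49 CPM in the controls and 2.95, 1.70 and 1.37 CPM with levofloxacin. Each control lay above each levofloxacin library, and its mean with levofloxacin was 0.425 times control replicate 2, the lowest such ratio of any member. Cz04g36210, of 1281 coding bases, had 18.9, 0.994 and 0.670 CPM in the controls and 16.2, 1.33 and 1.19 CPM with levofloxacin. It was high in replicate 1 of each group and low in the other 4 libraries, with counts of 554 and 460 against 23 to 44. Its log2 fold change with levofloxacin was -0.29 ± 1.39 (SE, edgeR), a value smaller than its error.

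Levofloxacin libraries stood near control replicate 2. Their mean was within 2 times control replicate 2 in 65 of 70 members, above that in 4 and below it in 1. It was under control replicate 2 in 35. The ratio of this mean to control replicate 2 had a median of 1 in members (quartiles 0.679 and 1.24). Among the 9136 IDs at 10 CPM or more in control replicate 1 it had a median of 0.953 (quartiles 0.818 and 1.1). Closeness to control replicate 2 was therefore not particular to the members. Since the rule set a limit on the controls relative to the levofloxacin libraries, this closeness is in part fixed by the choice of members. All levofloxacin libraries lay under control replicate 1 in 70 of 70 members. The rule chose a high control replicate 1, so this count is in part fixed by the choice. The levofloxacin libraries all lay under control replicate 3 in 57, or 81.4% of members, where 36.5% of all 14236 tested IDs did so.

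The comparison of levofloxacin with control was fitted over all tested IDs with edgeR's quasi-likelihood test. All 70 members passed the filter on low counts. With Benjamini-Hochberg adjustment 21 of 70 members were called lower and 0 higher, where 12.1% of all tested IDs were called lower and 10.1% higher; at an unadjusted p under 0.05, 49 were lower (20.5% of all tested IDs) and 0 higher. DESeq2, which gave an adjusted p for 68 members, called 32 of them lower (16% of all IDs with one) and 0 higher. Nothing is read from the 21 calls, since the rule used the same libraries. The median log2 fold change was -1.93 over members and 0.00 over all tested IDs, and it was negative in 70 of 70 members. The median and the signs are in part fixed, since the rule chose a high control replicate 1. In 22 of 70 members (31.4%) every levofloxacin library lay under every control, against 20% of all tested IDs. The rule left out IDs whose lowest control was at least 1.5 times the highest levofloxacin library, which bears on this share.

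The calls depended on single libraries. Without control replicate 2 the members called lower numbered 62, where 16.4% of all tested IDs were called lower. Without control replicate 3 or any of levofloxacin replicates 1, 2 and 3 they numbered 0, and the share of all tested IDs called lower also fell, to 4.34% without control replicate 3 and to 0.983%, 2.71% and 0.962% without levofloxacin replicates 1, 2 and 3. At an unadjusted p under 0.05 in edgeR's test, 49 members were lower without control replicate 3 (17.9% of all tested IDs), and 37, 32 and 27 without levofloxacin replicates 1, 2 and 3 (15.8%, 16.2% and 15% of all tested IDs). Without control replicate 1, the library in which members were high by choice, 19 were called lower, where 13.1% of all tested IDs were, and the members' median log2 fold change was -0.82.

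The next member with a low ratio of mean levofloxacin to control replicate 2, and the next with a high one, were Cz10g15070 and Cz08g11160. Cz10g15070, of 2901 coding bases, had 42.5, 8.89 and 16.5 CPM in the controls and 6.28, 3.45 and 4.03 CPM with levofloxacin. Each control lay above each levofloxacin library, and the mean with levofloxacin was 0.516 times control replicate 2. Cz08g11160, of 858 coding bases, had 103, 19.9 and 62.3 CPM in the controls and 44.8, 43.8 and 43.9 CPM with levofloxacin. Its levofloxacin libraries differed by at most 1.02 times and lay inside the range of the controls, at a mean of 2.22 times control replicate 2. Its log2 fold change was -0.57 ± 0.51 (SE, edgeR), and 0.09 without control replicate 1.

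Many members also varied among the levofloxacin libraries. The highest of the 3 levofloxacin libraries was at least 2 times the lowest in 26 of 70 members (37.1%), against 88 of the 9136 IDs that reached 10 CPM in control replicate 1 (0.963%). The median of this ratio was 1.66 in members and 1.14 in the 9136 IDs. The rule used the highest levofloxacin library in its last clause, so the same was computed for the 88 IDs chosen on control replicates 1 and 2 alone. Of these, 36 (40.9%) differed by at least 2 times among the levofloxacin libraries.

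The filter of 10 CPM was on control replicate 1, where members are high by choice. At least 100 counts in each levofloxacin library were reached by 48 of 70 members and by 9032 of the 9136 IDs. Low counts widen the ratio of highest to lowest, so the same was computed for IDs with more reads. With at least 100 counts in each levofloxacin library, 11 of 48 members (22.9%) differed by at least 2 times, against 52 of 9032 IDs (0.576%). Of the 19 IDs with control replicate 2 at least 4 times control replicate 1, 3 (15.8%) did so. Leaving out levofloxacin replicate 1 or 2 lowered the members' count to 8 (11.4%) and 10 (14.3%), against 0.405% and 0.383% of the 9136 IDs. The measure was chosen after the data had been seen, and it is given without a test because IDs of a library are not replicates.

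**Figure D4:**
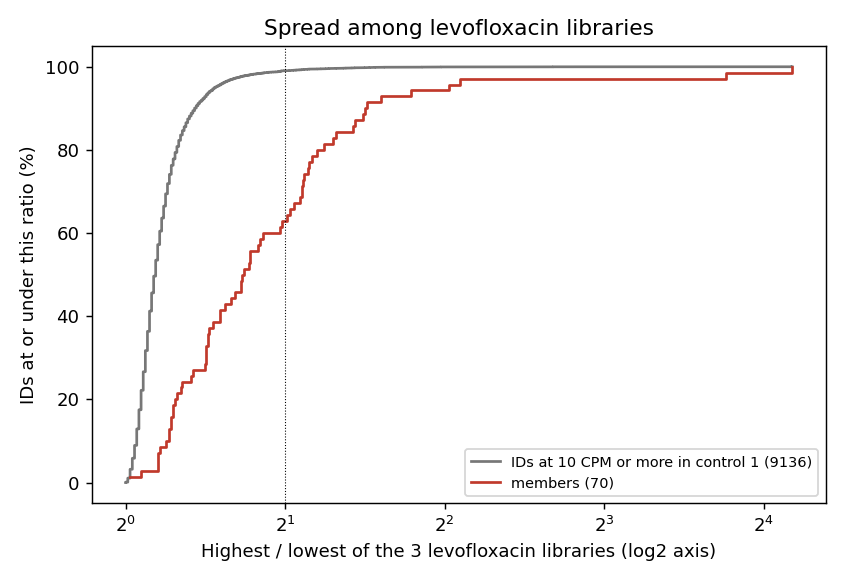
Cumulative share of IDs (percent) by the ratio of the highest to the lowest of the 3 levofloxacin libraries (log2 axis), for the 70 members (red) and the 9136 IDs at 10 CPM or more in control replicate 1 (grey). At the dotted line, a ratio of 2, 37.1% of members and 0.963% of the 9136 IDs lie at or beyond it. A smaller share of members than of the 9136 IDs had at least 100 counts in each levofloxacin library.

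The levofloxacin library that stood highest differed with the abundance of the member. Levofloxacin replicate 1 was the highest of its group in 40 members (57.1%), replicate 2 in 24 (34.3%) and replicate 3 in 6 (8.57%). Among the 9136 IDs these shares were 37.2%, 35.3% and 27.4%. In the 35 members of higher mean FPKM over all libraries (20.6 FPKM or more), replicate 2 was highest in 18 and replicate 1 in 14. In the 35 of lower mean FPKM (17.5 or less), replicate 1 was highest in 26 and replicate 2 in 6. The ratio of control replicate 1 to 2 was much the same in both sets, with medians of 5.90 and 5.60. No such split of other IDs is given here, so whether the difference between the sets is particular to members was not tested. The mean FPKM includes control replicate 1, and the rule used the highest levofloxacin library.

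The members were spread over the genome. All 17 chromosomes of the rule held at least 1, from 1 on Cz11 and on Cz13 to 8 of 883 IDs on Cz09 (0.906%). The highest share was on Cz19, with 3 of 284 IDs (1.06%). The median coding length of members was 939 bases, with quartiles of 754 and 1510. It was 1281 bases (777 and 2085) among the 9136 IDs at 10 CPM or more in control replicate 1 and 1071 bases among all IDs of these chromosomes.

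A few members were neighbours in the ID order, which is taken as the order of genes and could not be checked against coordinates. An adjacent member was found for 7 of 70 (10.0%), where 0.503% of IDs were members. The first share counts a member on either side and the second counts single IDs, also those under 10 CPM. They are unlike measures, and their ratio overstates the clustering. The longest run was of 3, on Cz07, from Cz07g28290 (222 coding bases) through Cz07g28300 (1116 bases) to Cz07g29010 (852 bases). Cz07g28290 had 95.3, 13.9 and 27.9 FPKM in the controls and 19, 24.6 and 11.5 FPKM with levofloxacin. Its neighbour Cz07g28300 had 223, 27.2 and 60.7 FPKM in the controls and 43.0, 62.3 and 31.8 FPKM with levofloxacin. Both were highest in control replicate 1, and within the levofloxacin group both were highest in replicate 2 and lowest in replicate 3.

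The counts of Cz07g28300 were from 9.82 to 13.9 times those of Cz07g28290 in all 6 libraries. Part of the likeness of neighbours, here and below, is fixed by the rule, which chose each for a high ratio of control replicate 1 to 2. Cz07g29010 did not follow with levofloxacin: it had 30.1, 4.41 and 9.88 FPKM in the controls and 3.54, 2.88 and 1.98 FPKM with levofloxacin. Its 3 controls lay above its levofloxacin libraries, unlike those of its neighbours, and its count relative to Cz07g28300 ran from 0.0353 to 0.124.

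The other runs were pairs, named here after their values had been seen. Cz15g21190 (843 coding bases) had 698, 58.1 and 168 FPKM in the controls and 44.7, 102 and 41.1 FPKM with levofloxacin. Cz15g21200 (291 coding bases) had 855, 78.0 and 254 FPKM in the controls and 69.6, 150 and 70 FPKM with levofloxacin. Their counts stood in a ratio of 1.70 to 2.37 in all 6 libraries, and in both of them levofloxacin replicate 2 was the highest of its group.

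Cz09g00350 (585 coding bases) had 27.5, 3.21 and 4.88 FPKM in the controls and 5.34, 2.18 and 3.15 FPKM with levofloxacin. Cz09g01010 (1527 coding bases) had 59.6, 8.17 and 13.7 FPKM in the controls and 11.7, 5.26 and 6.17 FPKM with levofloxacin. The count of the second was from 5.12 to 7.33 times that of the first. In this pair levofloxacin replicate 1, not 2, was the highest of its group. The strand setting of the counting is not given in the sources used here, so reads shared between overlapping genes or near-identical copies cannot be told apart from separate transcripts that vary together.

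**Figure D5:**
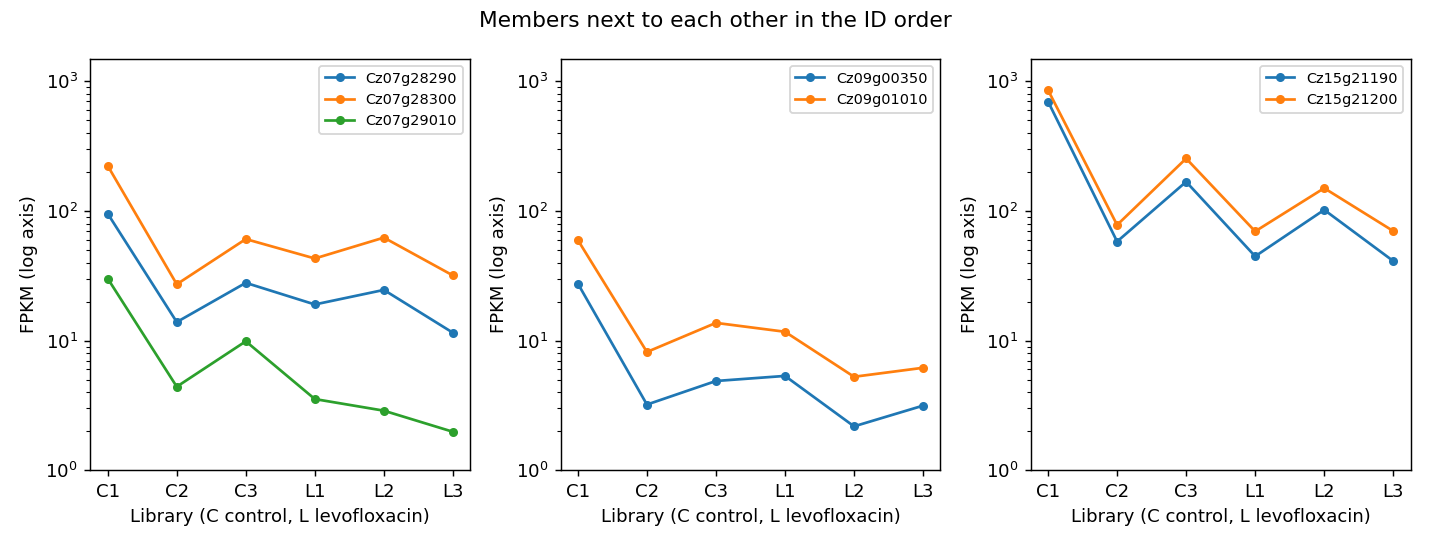
FPKM (log axis) in the 6 libraries (C1 to C3 control, L1 to L3 levofloxacin) of the members that are adjacent in the ID order, 1 panel per run. The lines of a panel run roughly in parallel, except Cz07g29010, which falls from 30.1 FPKM in control replicate 1 to between 1.98 and 3.54 FPKM with levofloxacin.

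IDs beside the members mostly lacked their high ratio of control replicate 1 to 2. This is in part fixed, since members were left out of the set. Of the 132 non-member IDs adjacent to a member, 89 reached 10 CPM in control replicate 1, and the median ratio of control replicate 1 to 2 in these was 0.946, against 0.852 in all 9066 non-members at that level. The ratio was at least 2 in 7 of the 89 (7.87%) and in 296 of the 9066 (3.26%).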

How the data were processed

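RNA-seq libraries of 3 control and 3 levofloxacin samples were analysed from the authors' deposited read counts per gene ID (15364 IDs) and the authors' deposited FPKM values (15369 IDs). The submitters' processing notes list HISAT2 2.0.6 and HTSeq 0.6.1; build, annotation and strand setting were not given in the sources used here. Libraries were made from 1 μg of total RNA, per the labels' protocols. Coding lengths were recovered as the single length per ID that turns the deposited counts into the deposited FPKM values; 99.7% of 15199 were multiples of 3.

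Members were selected on CPM from column totals. The members, the rule and all measures were chosen with earlier results of these data known. The other IDs named are those with the 3 largest ratios of control replicate 1 to 2, the 2 highest levels in control replicate 1, the 2 lowest and 2 highest ratios of mean levofloxacin to control replicate 2 (at least 10 counts in each library), and the ends of the longest run of adjacent members; exceptions are marked in the text. Lists by gene function could not be formed.

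Levofloxacin was compared with control with edgeR 4.0.16 in R 4.3.3 (filterByExpr, TMM, quasi-likelihood F test over 14236 IDs, Benjamini-Hochberg adjusted p under 0.05); the SE of a log2 fold change was taken as its size over the root of F. DESeq2 1.42.0, limma 3.58.1 on log2(FPKM + 1), other scalings, other filters, a replicate block and leaving out each library were tried as alternatives.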

Additional observations from a re-analysis of the deposited data

How the results depend on the processing

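The number of members was 125 with a ratio of at least 3 and 45 with at least 5; TMM-scaled CPM gave 101, among them all 70 members, and the other changes to the rule gave 48 to 88. Control replicate 3 lay between the other controls in 64 members with TMM scaling and in 51 when at least 1.5 times from both. The members called lower numbered 32 with DESeq2, 7 with limma on log2(FPKM + 1) and 9 on log2(FPKM + 0.1). In these fits 16%, 8.56% and 8.76% of all tested IDs were called lower. With the other scalings and filters 20 to 22 members were called lower, where 9.83% to 12.4% of all tested IDs were. With the replicate block 28 were called lower (10.7% of all tested IDs), 15 of them among the 21, with a median log2 fold change of -1.55. Same-numbered libraries deviated together with correlations of 0.156, 0.0532 and 0.0406, and 4 of 6 libraries correlated best with their own number; the labels do not say what a number marks, and the numbers were not taken as pairs. Leaving out 1 library at a time gave 0 to 62 called members and medians of -2.37 to -0.82, with the value nearest 0 without control replicate 1. The members with levofloxacin libraries at least 2 times apart numbered 8 to 21 with 1 levofloxacin library left out, 11 with at least 100 counts in each, and 25 with TMM scaling, all chosen after seeing the data.

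The fits were followed for 14 members: those named by the criteria above and the members just inside each limit of the rule. Members named after their values had been seen were left out. Among the 14, the sign of the log2 fold change turned in 7 fits. That of Cz04g36210 was 0.11 and 0.29 in limma with pseudocounts of 1 and 0.1, 0.17 with the replicate block, and -2.56 (without levofloxacin replicate 1) to 2.89 (without control replicate 1) with 1 library left out, also above 0 when levofloxacin replicate 2 (0.19) or 3 (0.21) was left out. That of Cz08g11160 was -1.01 to 0.09 over these fits, with the positive value without control replicate 1. Precision is set by the 3 libraries of each group, by single libraries at each step among the controls, and by counts as low as 7 in levofloxacin replicate 2.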

Other observations

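Outside the chromosomes of the rule, 12 IDs met its values: 4 of 270 on Cz17, 1 of 233 on Cz18 and 7 of 847 on unplaced sequence, with 0 of 73 chloroplast and 0 of 22 mitochondrial IDs. Control replicate 3 lay between the other controls in 11 of the 12, and its ratio to control replicate 2 had a median of 1.98. In the 18 IDs left out by the levofloxacin clause this ratio had a median of 1.85, and control replicate 3 lay between in 16.

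Differences of at least 4 times, at 10 CPM or more in the higher library, were uneven between libraries. On the chromosomes of the rule, 88 IDs were higher in control replicate 1 than in control replicate 2 and 19 lower. Control replicate 1 exceeded a levofloxacin library in 186 to 234 IDs, control replicate 3 in 56 to 83 and control replicate 2 in 18 to 30. Between levofloxacin libraries 0 to 2 IDs did so in each direction.

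Cz03g34180, a member of 1011 coding bases chosen for mention after its values were seen, had the widest range among levofloxacin libraries, with counts of 89, 7 and 123 in replicates 1, 2 and 3.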
